A study of Mus musculus with 55 samples.

Results

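The regions described here are the places in lung PRM tumour organoids where the histone methyltransferase KMT2C and the histone mark H3K4me3 were both found. They were chosen by merging the deposited KMT2C peaks of both lung PRM libraries wherever peaks shared at least 1 bp. A merged region was kept when it held a KMT2C peak from both libraries and touched an H3K4me3 peak in both H3K4me3 libraries of lung PRM. Of 17032 merged KMT2C regions, 8994 had a peak in both libraries, and 4970 of these met the H3K4me3 condition. Of the others, 2660 touched no H3K4me3 peak and 1364 touched one in a single library. Without KMT2C library 1, whose list is the shorter, the rule kept 7476 regions. At its edge, 12 members had H3K4me3 over less than 10% of their length, the smallest overlap being 9 bp, and 26 regions left out had H3K4me3 within 200 bp in both libraries. KMT2C and H3K4me3 in lung PRM therefore define the 4970 regions and are given only as description.

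The tumours came from mouse lung organoids that were edited in culture and injected into the left lung lobe of recipient mice, after which tumour organoids were harvested. PRMK carries guides against Trp53, Rb1 and Kmt2c and a MSCV-Myc-IRES-Luc2 vector, and PRM carries the same without the Kmt2c guide, so all groups share the guides against Trp53 and Rb1 and the added Myc. Organoids from PRM tumours were taken from lung and from liver. RNA was counted in 3 libraries each of PRMK, PRM, PRMK given a further Meis2 guide (sgMeis2) and PRMK given a scrambled one (sgScramble). Each peak group had 2 libraries: H3K4me2 and H3K4me3 for lung PRMK and lung PRM, and H3K4me1, KMT2C and ATAC for lung PRMK, liver PRM and lung PRM. Neither strain nor age is stated in the sources used here. The labels leave other limits. For H3K4me2, H3K4me3 and KMT2C in PRMK, library 1 was also given the Meis2 guide and library 2 the scrambled guide, so those pairs mix both. No Kmt2c guide is listed for the PRMK RNA samples. A stranded RNA kit is named only for PRM, so library preparation and genotype cannot be told apart. Whether replicates are separate animals is not stated in the labels, so p-values measure the spread between these samples, which may be technical.

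KMT2C, also called MLL3, is the catalytic subunit of a COMPASS-like complex. It adds methyl groups to lysine 4 of histone H3 and is best known for H3K4me1 at enhancers, the distal elements that raise transcription. H3K4me3 marks the starts of active genes and is mainly placed by other enzymes of the family, SETD1A, SETD1B, KMT2A and KMT2B. H3K4me2 is found at both. CUT&Tag maps a protein or mark by directing a transposase to it with an antibody, SEACR calls peaks from the resulting signal, and ATAC maps open chromatin by free transposase.

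The members lay mostly at gene starts. Of the 4970 regions, 4001 (80.5%) had a start within 1 kb, 666 (13.4%) lay inside a gene away from a start, and 303 (6.10%) lay between genes. KMT2C regions without H3K4me3 had a start within 1 kb in 9.36% of cases, and H3K4me3 regions without KMT2C in 75.1%. The latter class, also called H3K4me3 alone below, is the 7848 regions with a KMT2C peak in neither lung PRM library. Longer KMT2C lists did reach it: 69.4% and 66.6% of its regions had a peak in the PRMK libraries and 48.5% and 66.3% in the liver PRM libraries. It is therefore not a class shown to lack KMT2C. Among member regions at starts of the promoter table, 26.5% held a pair of genes on opposite strands, against 15.8% for H3K4me3 without KMT2C and 3.23% for KMT2C without H3K4me3. The regions were narrow, with a median width of 2116 bp, a middle range of 1635 to 2949 bp and extremes of 104 and 33799 bp. The member genes are the 5236 genes with a start within 1 kb of a member region, of which 4458 are protein coding and 778 are long non-coding RNA genes. For 954 of them either gene end stood in for the start.

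Promoters of 8 genes are printed to show what such a start looks like and because later results turn on these genes: Per1, Dbp and Tef from the strongest KMT2C sites, Polr1b and Rpl37 from the genes of ribosome production, Lfng and Galk1 from the genes with the largest RNA differences, and Mcts2 from the sites without KMT2C in liver. Each runs from 250 bases before to 50 bases after the annotated start in RefSeq for GRCm38.p6, the assembly known as mm10, and is written 5′ to 3′ on the gene's own strand. Capitals mark CCAAT (the NF-Y box), GGGCGG (the SP box) and CACGTG (the E-box), read on both strands.
Per1, chr11:69098699-69098998, plus strand: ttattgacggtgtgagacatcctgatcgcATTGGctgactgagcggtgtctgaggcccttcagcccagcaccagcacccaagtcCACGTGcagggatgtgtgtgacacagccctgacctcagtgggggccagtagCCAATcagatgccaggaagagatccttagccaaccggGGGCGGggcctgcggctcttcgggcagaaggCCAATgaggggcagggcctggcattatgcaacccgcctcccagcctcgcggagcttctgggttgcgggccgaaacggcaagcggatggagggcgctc
Dbp, chr7:45704997-45705296, plus strand: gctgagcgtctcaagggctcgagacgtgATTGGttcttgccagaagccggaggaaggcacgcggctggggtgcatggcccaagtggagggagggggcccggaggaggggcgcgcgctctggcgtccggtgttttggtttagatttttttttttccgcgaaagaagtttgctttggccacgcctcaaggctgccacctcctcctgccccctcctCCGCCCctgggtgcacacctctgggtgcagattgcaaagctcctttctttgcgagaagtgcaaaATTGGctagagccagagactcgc
Tef, chr15:81811164-81811463, plus strand: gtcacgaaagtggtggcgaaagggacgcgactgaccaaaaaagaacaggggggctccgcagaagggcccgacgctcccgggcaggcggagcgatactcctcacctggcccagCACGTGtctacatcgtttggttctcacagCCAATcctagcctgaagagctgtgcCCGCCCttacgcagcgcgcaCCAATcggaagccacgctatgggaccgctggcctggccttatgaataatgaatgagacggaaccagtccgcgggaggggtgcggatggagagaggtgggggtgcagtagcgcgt
Polr1b, chr2:129100746-129101045, plus strand: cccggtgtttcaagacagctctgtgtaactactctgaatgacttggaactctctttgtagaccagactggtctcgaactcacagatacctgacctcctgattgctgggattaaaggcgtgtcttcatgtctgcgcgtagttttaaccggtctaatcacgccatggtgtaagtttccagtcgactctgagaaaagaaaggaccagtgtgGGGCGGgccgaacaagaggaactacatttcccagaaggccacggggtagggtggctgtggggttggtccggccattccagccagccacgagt
Rpl37, chr15:5116363-5116662, plus strand: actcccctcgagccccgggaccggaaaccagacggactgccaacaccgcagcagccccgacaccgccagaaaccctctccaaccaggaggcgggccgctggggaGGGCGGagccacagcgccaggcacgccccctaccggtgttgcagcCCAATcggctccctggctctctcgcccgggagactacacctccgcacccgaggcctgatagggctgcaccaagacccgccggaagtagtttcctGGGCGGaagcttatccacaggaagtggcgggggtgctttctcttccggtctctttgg
Lfng, chr5:140607091-140607390, plus strand: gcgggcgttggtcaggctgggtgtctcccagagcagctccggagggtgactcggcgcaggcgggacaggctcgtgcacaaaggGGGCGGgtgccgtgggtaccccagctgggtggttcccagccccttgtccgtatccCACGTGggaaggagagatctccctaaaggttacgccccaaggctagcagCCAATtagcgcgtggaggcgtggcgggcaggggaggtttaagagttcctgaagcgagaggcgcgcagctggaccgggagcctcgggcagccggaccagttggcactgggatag
Galk1, chr11:116012670-116012969, minus strand: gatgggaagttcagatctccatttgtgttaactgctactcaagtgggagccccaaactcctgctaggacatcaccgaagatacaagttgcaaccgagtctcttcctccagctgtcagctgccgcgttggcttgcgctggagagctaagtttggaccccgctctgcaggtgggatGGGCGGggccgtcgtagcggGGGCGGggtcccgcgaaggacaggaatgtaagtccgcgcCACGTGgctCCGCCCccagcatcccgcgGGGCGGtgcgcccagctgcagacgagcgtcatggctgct
Mcts2, chr2:152686898-152687197, plus strand: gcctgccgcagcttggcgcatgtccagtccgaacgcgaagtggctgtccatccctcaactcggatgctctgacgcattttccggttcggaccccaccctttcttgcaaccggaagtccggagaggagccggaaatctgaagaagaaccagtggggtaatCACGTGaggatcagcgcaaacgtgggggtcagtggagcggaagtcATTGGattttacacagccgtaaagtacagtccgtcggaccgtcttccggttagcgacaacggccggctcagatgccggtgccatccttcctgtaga

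The printed promoters differed in what they held. Per1 and Tef each have an E-box, the sequence read by the clock activators CLOCK and BMAL1 and by MYC with MAX, and each also has NF-Y and SP boxes. Dbp has NF-Y and SP boxes but no E-box in these letters. Lfng has 1 match to each of the 3 motifs, with its E-box starting 112 bases before the start. Galk1 has 4 SP boxes and an E-box starting 17 bases before the start. Polr1b has a single SP box, and Rpl37 has an NF-Y box and a pair of SP boxes. Mcts2 has an E-box and an NF-Y box. A match is a description of the letters and not a measured binding site.

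Member promoters are the 4743 promoters of the table whose start lies inside a member region. Their sequence was rich in G, C and CpG. The median GC content was 63% in member promoters, 61% in promoters with H3K4me3 without KMT2C and 52.7% in all 32851 promoters. The observed over expected CpG ratio had a median of 0.81 in member promoters, against 0.75 with H3K4me3 alone and 0.38 in all promoters. It was above 0.6 in 82.4% of member promoters, 69.9% of those with H3K4me3 alone and 35.8% of all. CpG-rich starts of this kind are the usual setting of H3K4me3, so both H3K4me3 classes lie above the whole table.

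Of the 9 motifs searched in every promoter, the NF-Y box had the widest gap between the H3K4me3 classes. It occurred in 44.7% of member promoters, 33.1% of promoters with H3K4me3 alone and 37.4% of all promoters. The SP box occurred in 71.4%, 62.5% and 35.7% in the same order of classes, and the E-box in 11.2%, 9.32% and 7.15%. The ETS motif CCGGAAG was found in 18.6% of member promoters, 17.1% with H3K4me3 alone and 8.86% of all. Among members, ETS matches were in 25.1% of promoters in the lowest of 4 equal groups by KMT2C signal and 13.1% in the highest. The NRF1 motif GCGCATGC (5.97%, 4.69% and 2.71% in the same order of classes), the YY1 motif ATGGCGGC (5.29%, 4.57% and 2.24%) and the CREB motif TGACGTCA (3.80%, 2.81% and 1.79%) were each less frequent. Below the whole table were the TATAAA motif and the D-box TTATGTAA, which was added after the clock sites had been seen. The D-box was in 0.40% of member promoters, 0.40% with H3K4me3 alone and 0.94% of all promoters, and TATAAA in 5.97% of member promoters, 6.42% with H3K4me3 alone and 13.6% of all promoters. These shares are descriptions, since GC content moves with most of them.

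**Figure D1:**
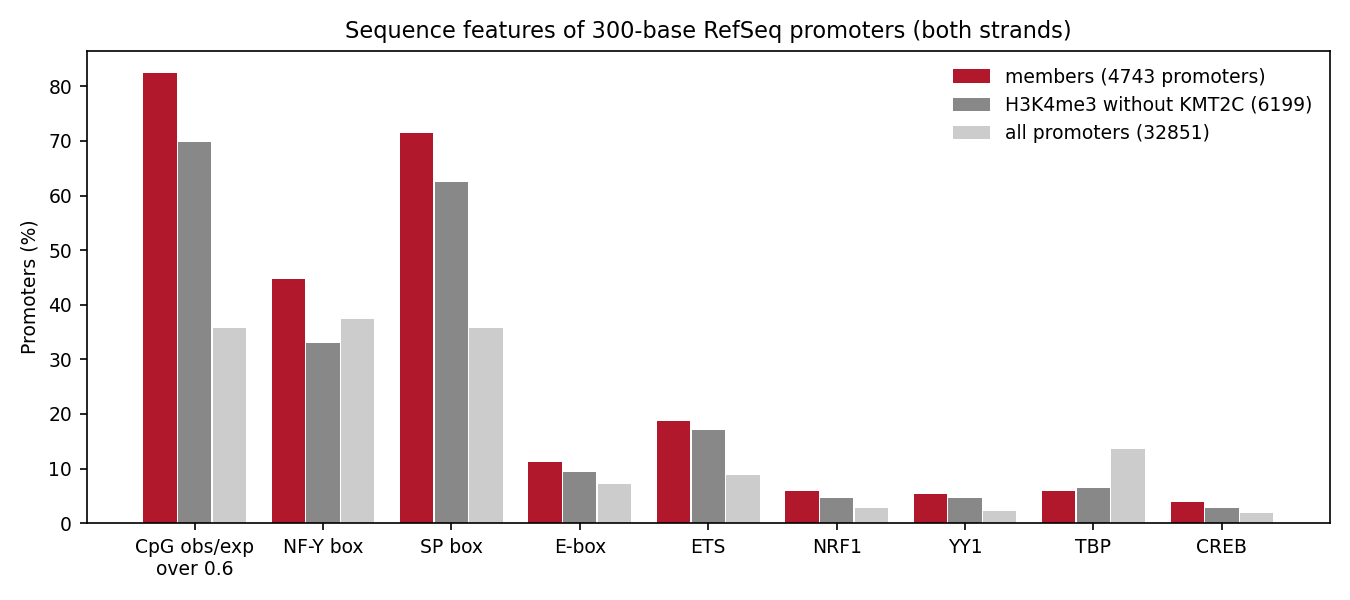
Percent of promoters (y axis) with a CpG ratio over 0.6 or at least 1 match to each motif (x axis). Bars are the member promoters, the promoters with H3K4me3 but no KMT2C peak in lung PRM, and all promoters of the RefSeq table. The NF-Y box was in 44.7% of member promoters and 33.1% of those with H3K4me3 alone, and the TATAAA motif, shown as TBP, in 5.97% and 6.42%.

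Several of the strongest KMT2C sites lay over clock genes. The highest total signal of all was at Gm52481 on chromosome Y (chrY:90737252-90745404), where ATAC peaks were called in all 6 ATAC libraries but KMT2C in 1 of 2 lung PRMK libraries and in neither liver PRM library. The liver ATAC lists held only 313 and 120 peaks in all. Whether reads map uniquely at this site was not tested, so its rank and its missing KMT2C peaks are uncertain. Next was the region over Nr1d1 and the end of Thra (chr11:98759961-98778276), with a total KMT2C signal of 735696 in PRM library 1 and 693188 in library 2. Nr1d1 encodes the nuclear receptor REV-ERB alpha, which represses clock genes, and Thra on the other strand encodes a thyroid hormone receptor. Per1 with Vamp2 followed (chr11:69091596-69101616, 350239 and 343301), then Tef (chr15:81805533-81813094, 347498 and 345666) and Dbp (chr7:45703451-45713549, 285380 and 257333). Per1 is a core clock repressor, Vamp2 a synaptic vesicle SNARE protein, and Dbp and Tef are PAR bZIP factors that carry clock output. Both libraries thus gave these sites similar totals. The totals are SEACR's own sums for the highest single peak over each region, and they grow with width.

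Other leading sites with a gene start within 1 kb belonged to Mnt, Neat1, Scx, Rara and Per2. Mnt encodes a MAX partner that represses MYC targets, and Neat1 is the non-coding RNA that scaffolds paraspeckles. Scx is a tendon transcription factor and Rara a retinoic acid receptor. A second region over Thra stood at percentiles 99.9 and 99.96 of the lung PRM lists. Among sites without such a start, a region within Bahcc1 stood at 99.94 and 99.93 and one within Lmna at 99.88 and 99.90. Of 25 clock genes in a list written after the strongest sites had been seen, 14 were member genes, among them Arntl, Bhlhe40, Bhlhe41, Ciart, Cry2, Csnk1d, Dbp, Nr1d1, Nr1d2, Per1, Per2, Per3 and Tef. Of the 14, 10 have a promoter in the table whose start lies inside a member region, and among these E-boxes were found at Bhlhe41, Ciart, Per1 and Tef. Strong sites in lung PRM differed in rank where KMT2C was mapped elsewhere. Each percentile is that of the single peak with the highest total over the region. A wide region split into several peaks can therefore rank lower, and such splitting was not tested. The Nr1d1 site stood at percentiles 99.998 and 99.997 of the 2 lung PRMK lists and 99.988 and 99.996 of the 2 liver PRM lists. A region 26002 bp wide (chr8:123538301-123564302) had no start of a protein-coding or long non-coding RNA gene within 1 kb. It stood at percentiles 43.2 and 71.7 of the PRMK lists and 99.5 and 99.7 of the liver lists. In the lung PRM lists it stood at 98.7 and 99.8. No ATAC library had a peak there. Genes of other types were not searched, and whether reads map uniquely at this region was not tested, so its ranks are uncertain.

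Per2, a core clock repressor, was another site with incomplete KMT2C elsewhere (chr1:91454307-91461106). Its region held a KMT2C peak in PRMK library 1, at percentile 99.9, and in liver library 2, at percentile 90.5, but not in PRMK library 2 or liver library 1. H3K4me3 and H3K4me2 were called there in both lung PRMK libraries, and H3K4me1 in both libraries of lung PRMK, liver PRM and lung PRM. The widest members were stretches of 33799 and 31555 bp within Tcf4, a bHLH gene, both away from an annotated start. The wider stood at percentiles 88.9 and 90.9 of the PRMK lists and 99.9 and 99.99 of the liver lists. These ranks are also of a single peak in a wide region, so they do not show that KMT2C was weaker in PRMK.

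H3K4me3 was called in PRMK at nearly all members. It was present in 96.4% of the 4970 regions in PRMK library 1 and 94.8% in library 2. Both PRMK libraries had it at 4681 regions (94.2%), 1 library at 141, and neither at 148 (2.98%), a number that was 256 without PRMK library 1. Over all 14790 H3K4me3 regions of lung PRM, 5.02% had no peak in either PRMK library. H3K4me3 regions without KMT2C were covered in 92.8% and 83.6% of cases in the same PRMK libraries. The 2 classes already differed in H3K4me3 signal in lung PRM. There the median member stood at percentiles 77.5 and 82.0 of the H3K4me3 lists, and the median region without KMT2C at 43.7 and 55.1. The part of peak strength in these shares was not tested.

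Members with and without H3K4me3 in PRMK differed in position. At gene starts 98.2% had it in both PRMK libraries, inside genes 77.5%, and between genes 77.6%. Of the 148 regions without it, 22.3% lay at a start, and 85.1% had H3K4me1 in both lung PRM libraries, against 84.0% at a start and 30.7% with H3K4me1 among the 4681 that kept it. With 2 libraries against 2, the smallest p of an exact permutation test is 0.333, and peak differences were left untested.

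**Figure D2:**
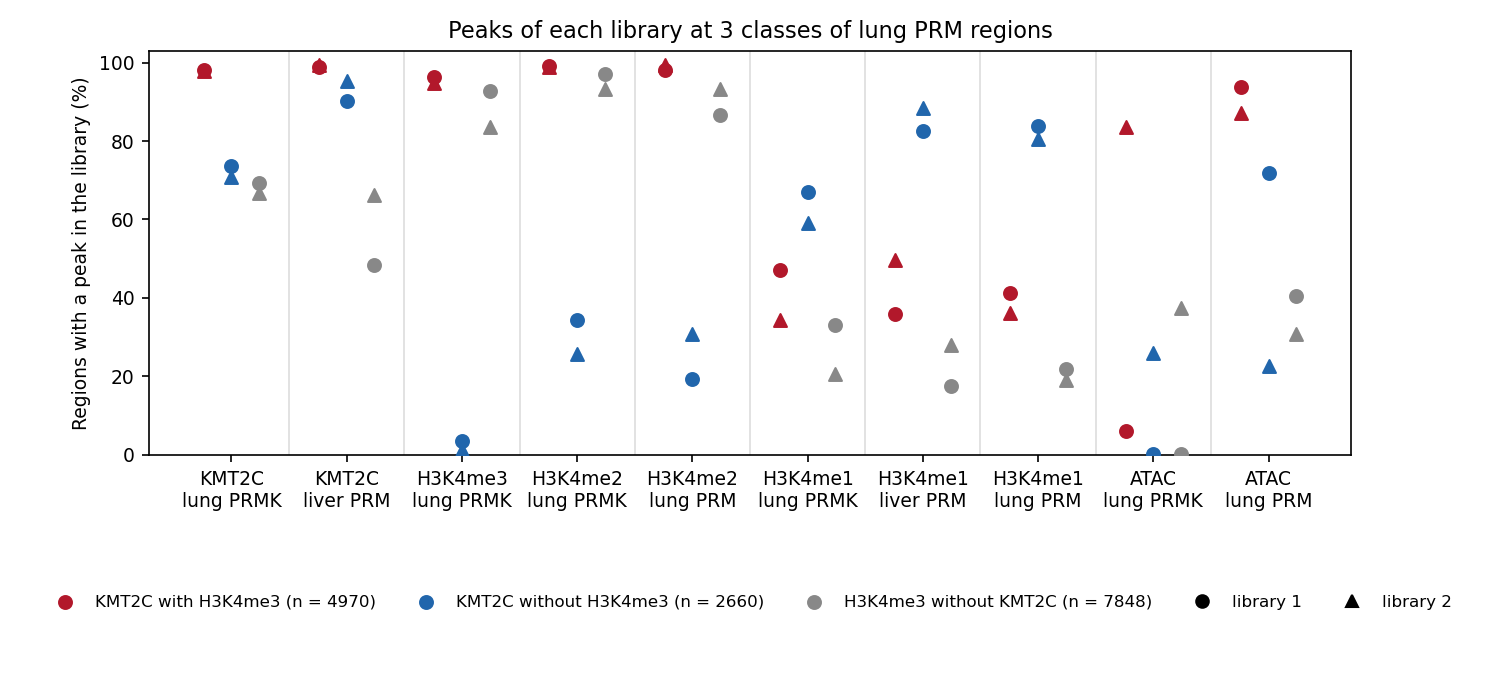
Percent of regions (y axis) with a peak in each library for KMT2C regions with H3K4me3, KMT2C regions without H3K4me3 and H3K4me3 regions without KMT2C (colours), by measurement and tumour (x axis). Circles are library 1 and triangles library 2. Member regions carried H3K4me3 in 96.4% and 94.8% of cases in the PRMK libraries and H3K4me1 in 47.0% and 34.3%, and the first PRMK ATAC library, which held 565 peaks, reached 6.08%.

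One start region that lacked both H3K4me3 and H3K4me2 in PRMK was that of Sgce and Peg10, an imprinted pair (chr6:4746437-4749992). In lung PRM it carried H3K4me3, H3K4me2, KMT2C and ATAC peaks in both libraries. In lung PRMK neither H3K4me3 nor H3K4me2 was called in either library, and KMT2C was called in 1 of 2. In liver PRM KMT2C was called in neither library. Sgce RNA was 12.1, 2.56 and 36.1 CPM (counts scaled to library size) in PRMK libraries 1 to 3 and 48.8, 58.0 and 13.9 CPM in PRM libraries 4 to 6. The groups overlapped, and the log2 fold change was -1.25 (SE 0.97, edgeR adjusted p = 0.532).

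Of the 33 start regions without H3K4me3 in PRMK, 26 had H3K4me2 in both PRMK libraries, 25 KMT2C, 22 H3K4me1 and 18 all 3. Among these 18, Rap1gap, a GTPase-activating protein for RAP1 (chr4:137674756-137682583), Npepl1, an aminopeptidase-like gene (chr2:174110690-174115407), and Omp, the olfactory marker protein gene (chr7:98144377-98148949), each had H3K4me1, H3K4me2 and KMT2C in both PRMK libraries. Rap1gap RNA was 352, 202 and 571 CPM in PRMK and 95.8, 54.3 and 26.7 CPM in PRM. Every PRMK library lay above every PRM library, so Rap1gap RNA was higher where the H3K4me3 peak was missing. Its log2 fold change was 2.67 (SE 0.59), DESeq2 gave an adjusted p of 0.0008 (called with each library left out), and edgeR's quasi-likelihood test an adjusted p of 0.19.

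H3K4me2 was found at nearly all members, at starts and away from them. It was called in 99.1% and 98.9% of members in the PRMK libraries and 98.1% and 99.3% in the PRM libraries. H3K4me2 was in both libraries at 98.7% of members in PRMK and 97.6% in PRM. The shares in PRMK were 99.6% at starts, 95.0% inside genes and 95.4% between genes, and in PRM 98.5%, 94.4% and 93.7%.

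H3K4me1 covered a minority of the members, and the shares of the 3 tumours overlapped between libraries. It was called in 47.0% and 34.3% of members in the lung PRMK libraries, 36.0% and 49.6% in the liver PRM libraries and 41.4% and 36.1% in the lung PRM libraries. The share with a peak in both libraries was 31.5% in lung PRMK, 34.8% in liver PRM and 33.8% in lung PRM. KMT2C regions without H3K4me3 differed from this: 55.6% had H3K4me1 in both lung PRMK libraries, 81.9% in both liver PRM libraries and 79.4% in both lung PRM libraries. H3K4me3 regions without KMT2C stood at 19.01%, 16.9% and 17.6%.

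Of the 1682 members with H3K4me1 in both lung PRM libraries, 1275 also had it in both PRMK libraries, 282 in 1 and 125 (7.43%) in neither. Over all KMT2C sites of lung PRM with H3K4me1, 13.9% had it in neither PRMK library. The same 1682 members had H3K4me1 in both liver libraries in 1512 cases, in 1 in 145 and in neither in 25 (1.49%), and 0.667% over all such KMT2C sites had none in liver. In the other direction, 159 of the 2799 members without H3K4me1 in either lung PRM library (5.68%) had it in both PRMK libraries, beside 7.97% over all KMT2C sites without it. Among the 125 regions without it in PRMK, 80.8% lay at a start, against 55.8% of the 1275 that had it throughout. Galk1, which encodes galactokinase, was of this kind: its region (chr11:116011985-116013533) had H3K4me1 in both liver PRM and both lung PRM libraries and in neither PRMK library.

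KMT2C peaks were still called at the members in PRMK. The share was 98.0% in PRMK library 1 and 97.9% in library 2, and 98.8% and 99.3% in the liver PRM libraries. Both PRMK libraries had a KMT2C peak at 96.8% of members, and both liver libraries at 98.7%. Neither PRMK library had one at 47 members and neither liver library at 29. Over the 8994 KMT2C regions of both lung PRM libraries those backgrounds were 7% for PRMK and 1.8% for liver.

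The lists differed in length. The PRMK lists held 187682 and 134561 peaks, the liver PRM lists 65201 and 113129, and the lung PRM lists 9949 and 16681. Members were ranked by the total signal of their highest single peak. The median member stood at percentiles 97.4 and 97.0 of the PRMK lists, 93.4 and 96.4 of the liver lists and 59.9 and 75.2 of the lung PRM lists. These percentiles rose with list length, so they cannot tell whether KMT2C at the members changed between tumours. The part that depth, background signal or calling threshold takes in the longer PRMK lists was not tested. The labels do not say where the Kmt2c guide cuts.

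Members without a KMT2C peak in PRMK were few at starts. They included Plekhg5, a guanine nucleotide exchange factor gene (chr4:152087055-152089850), Lrrfip1, an RNA and DNA binding protein gene (chr1:91051941-91054527), Plvap, a gene of endothelial diaphragms (chr8:71494791-71497475), and Taco1, a mitochondrial translation activator (chr11:106066771-106066874). Each of these 4 regions held KMT2C in both liver PRM libraries. The Taco1 region has the smallest width of any member, 104 bp beside a median of 2116 bp. A PRMK peak close beside it would not be counted. H3K4me3 was called in both PRMK libraries at Plekhg5, Lrrfip1 and Taco1 and in neither at Plvap. Plekhg5 RNA was 141, 112 and 149 CPM in PRMK and 42.3, 32.7 and 26.2 CPM in PRM. The groups did not overlap, with a log2 fold change of 1.99 (SE 0.25), a DESeq2 adjusted p of 4.38e-09 and an edgeR adjusted p of 0.158.

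Mcts2, an imprinted retrogene within H13, was the reverse case. Its region (chr2:152686052-152687815) had KMT2C and H3K4me3 in both PRMK libraries and KMT2C in neither liver library. Mcts2 RNA was 7.19, 7.04 and 6.93 CPM in PRMK and 13.8, 18.7 and 10.7 CPM in PRM, and the groups did not overlap. The log2 fold change was -1.03 (SE 0.36), DESeq2 gave an adjusted p of 0.0266 and edgeR 0.248, and DESeq2 did not call it when any 1 PRMK library was left out. Reads of Mcts2 may be shared with its parent gene Mcts1, so its level is uncertain. Of 38 imprinted genes in a list written after Sgce, Peg10 and Mcts2 had been seen, 11 were member genes.

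Most members were open chromatin in lung PRM. ATAC peaks were called at 93.7% and 87.1% of members in the lung PRM libraries, and in both at 84.3%. The shares in both libraries were 20.9% for KMT2C regions without H3K4me3 and 22.1% for H3K4me3 regions without KMT2C. In PRMK, library 2 had ATAC peaks at 83.6% of members, while library 1 held 565 peaks in all and covered 6.08%. The liver PRM ATAC lists held 313 and 120 peaks, so no ATAC comparison with liver was made.

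The members were spread unevenly over chromosomes. Of all H3K4me3 regions of lung PRM, 31.7% had KMT2C in both lung PRM libraries. The share was 50.2% on chromosome 11 and 47.6% on chromosome 19, against 9.51% on chromosome 14, 16.2% on chromosome 10, 18.5% on chromosome X and 20.2% on chromosome 8. The same order was seen in part where the lists were longer. Chromosome 11 had 86.0% in lung PRMK and 86.4% in liver PRM, and chromosome 14 had 53.2% in lung PRMK and 37.7% in liver PRM, against 74.7% in lung PRMK and 69.2% in liver PRM over all chromosomes. Chromosome 14 also stood low in the RNA of PRM library 4. Its genes there had a median log2 ratio of CPM of -0.72 to the mean of the other libraries. In PRM libraries 5 and 6 they had 0.24 and 0.21. In PRM library 4, chromosomes 8, 10 and X had 0.13, -0.14 and 0.11. Chromosome 5 had -0.87 in PRM library 4, while 26.5% of its H3K4me3 regions had KMT2C in both lung PRM libraries. Chromosome 13 had 0.73 in PRM library 5. Copy number of these tumours was not measured in the files used, and its part in the chromosome shares was not tested.

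**Figure D3:**
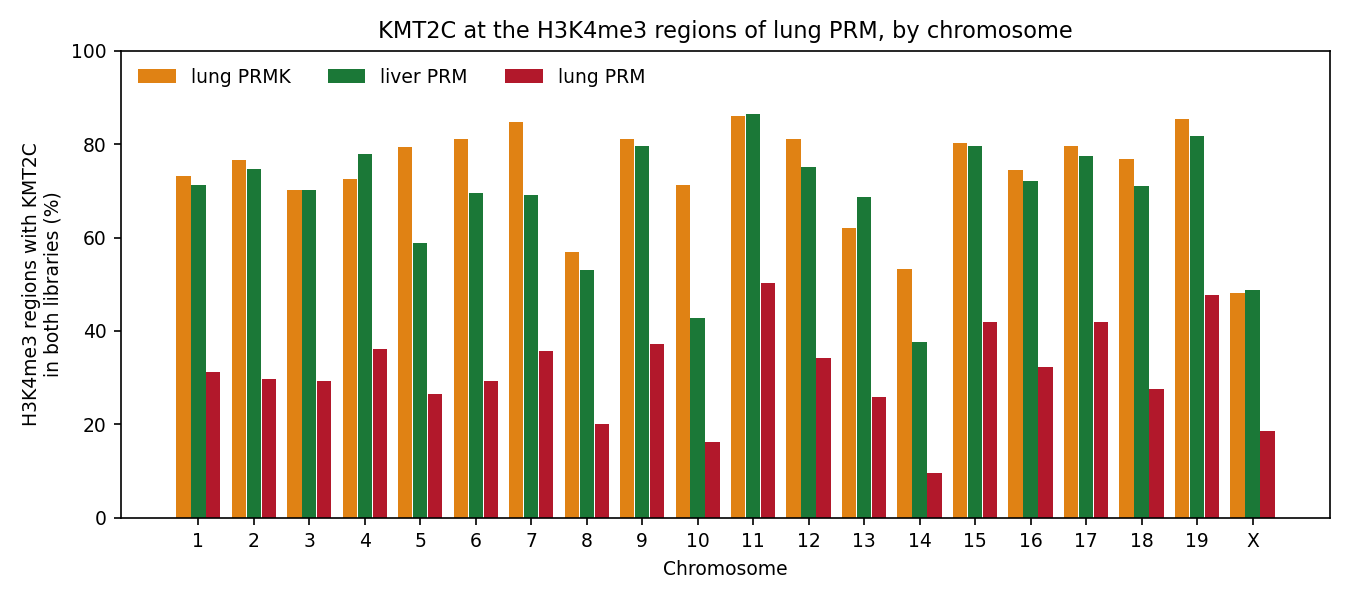
Percent of the H3K4me3 regions of lung PRM (y axis) with a KMT2C peak in both libraries of lung PRMK, liver PRM and lung PRM (bars), for the autosomes and chromosome X (x axis). Chromosome 11 reached 50.2% and chromosome 14 reached 9.51% in lung PRM.

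Expression was compared between PRMK and PRM. Total counts ran from 12013253 to 24389041 over the 12 RNA libraries. Kmt2c itself, a member gene with H3K4me3 in both PRMK libraries, had 85.1, 84.4 and 105 CPM in PRMK and 113, 186 and 67.5 CPM in PRM. The groups overlapped, with a log2 fold change of -0.42 (SE 0.38, edgeR adjusted p = 0.585). A guide-made frameshift need not lower RNA, so this level does not check the label. Dnmt3a, a DNA methyltransferase gene with a member region near its 5′ end (chr12:3807874-3812078), had 328, 334 and 341 CPM in PRMK and 218, 238 and 102 CPM in PRM. Every PRMK library lay above every PRM library, and the log2 fold change of 0.85 (SE 0.34) passed neither test (edgeR adjusted p = 0.281, DESeq2 adjusted p = 0.159).

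In the summed neuroendocrine and the summed myeloid and lymphoid markers, the PRM libraries differed among themselves more than the PRMK libraries did. Hepatocyte markers went the other way. The summed CPM of the 26 neuroendocrine genes in the table of 28 listed was 10831, 9289 and 11232 in PRMK and 12331, 7040 and 476 in PRM libraries 4 to 6. Myeloid and lymphoid markers, 8 in the table of 13 listed, summed to 479 to 701 CPM in PRMK and to 504, 4.20 and 94.3 CPM in PRM libraries 4 to 6. Most of that sum was Lyz2, and Ptprc was under 1 CPM on average or not in the table. Fibroblast markers summed to 72.5 to 305 CPM in PRMK and 4.59 to 348 CPM in PRM, endothelial markers to 27.7 to 202 CPM and 0.78 to 38.9 CPM, hepatocyte markers to 1.51 to 18.5 CPM and 1.60 to 4.91 CPM, and lung epithelial markers to 11.99 to 15.2 CPM and 3.38 to 9.30 CPM. Scgb1a1, Sftpb and Krt5 were under 1 CPM on average or not in the table. The part these differences take in the results below was not tested, and in bulk RNA fewer cells of a type and less RNA per cell cannot be told apart.

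Member genes were called about as often as all genes in RNA. Of 5236 member genes, 4375 passed the filter on low counts. The edgeR quasi-likelihood test called none at an adjusted p under 0.05, as for all genes tested (0% called). At an unadjusted p under 0.05 it had 264 member genes higher and 503 lower in PRMK, where the backgrounds over all genes tested were 7.03% and 10.1%. DESeq2 called 353 member genes (8.07%), 117 higher and 236 lower, against backgrounds of 8.76% in either direction, 3.9% higher and 4.86% lower. PRMK and PRM libraries did not overlap in 635 member genes that were higher (14.5%) and 773 that were lower (17.7%), beside 15.1% and 14.6% of all genes. The median log2 fold change was -0.05 over member genes and -0.02 over all genes tested. Without PRM library 4, edgeR called 252 member genes (796 of 14251 over all genes) and DESeq2 1226 (4060 over all genes). DESeq2 called 421 without PRM library 5 and 631 without PRM library 6, beside 1449 and 2165 over all genes. DESeq2 called 40, 125 and 74 without PRMK libraries 1, 2 and 3, beside 215, 499 and 350 over all genes.

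RNA was also set beside H3K4me1, with no test between the gene groups. The 678 tested genes with H3K4me1 in both lung PRMK and both lung PRM libraries had a median log2 fold change of 0.06, and the 112 with H3K4me1 in neither PRMK library but both PRM libraries had -0.16. The 2376 genes with H3K4me1 in none of these 4 libraries had -0.12. The 149 genes with H3K4me1 in both PRMK libraries and neither PRM library had 0.04. DESeq2 called 22 higher and 36 lower among the 678 genes (8.55%), 1 and 9 among the 112 (8.93%), 56 and 138 among the 2376 (8.16%) and 5 and 5 among the 149 (6.71%), beside the 8.76% over all genes.

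The member genes with the largest higher RNA in PRMK were Myo1h, Panx2, Espn, Pax9 and Lfng, all called by DESeq2 and none by edgeR. With each library left out in turn, DESeq2 still called Myo1h, Panx2, Pax9 and Lfng every time, and Espn except without PRMK library 1 or 3. Myo1h, an unconventional myosin gene, had 49.3, 23.4 and 39.1 CPM in PRMK and 0.261, 0.392 and 1.33 CPM in PRM. Its log2 fold change was 5.86 (SE 0.78, DESeq2 adjusted p = 6.07e-14, edgeR adjusted p = 0.158). The Myo1h region was a weak KMT2C site, at a mean percentile of 9.6, with no ATAC peak in lung PRM.

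Lfng encodes a glycosyltransferase that modifies Notch receptors. It had 115, 95.2 and 197 CPM in PRMK and 12.5, 8.18 and 18.8 CPM in PRM, without overlap. The log2 fold change was 3.37 (SE 0.45), with a DESeq2 adjusted p of 2.22e-09 and an edgeR adjusted p of 0.158. The Lfng region (chr5:140606185-140613348) ranked at percentile 98.8 for KMT2C and carried all 3 methylation states in both PRMK and both PRM libraries. Pax9, a paired-box factor gene, had 48.2, 136 and 29.1 CPM in PRMK and 11.1, 2.86 and 5.78 CPM in PRM. Espn, an actin-bundling protein gene, had 251, 114 and 433 CPM in PRMK and 5.69, 10.6 and 50.3 CPM in PRM, and neither gene's groups overlapped.

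Among the member genes with the most negative log2 fold changes were C230035I16Rik, Tgif2, Thbs3 and Galk1. C230035I16Rik had 0.603, 0.991 and 0.554 CPM in PRMK and 5.33, 11.1 and 2.22 CPM in PRM (log2 fold change -3.12, SE 0.75, DESeq2 adjusted p = 0.00194, edgeR adjusted p = 0.193), and DESeq2 did not call it without PRMK library 1 or 3. Tgif2, a TALE homeobox repressor gene, had 1.25, 1.57 and 0.910 CPM in PRMK and 4.07, 13.5 and 9.78 CPM in PRM (log2 fold change -2.87, SE 0.61, DESeq2 adjusted p = 0.000254, edgeR adjusted p = 0.19). Neither gene's groups overlapped. Thbs3, a thrombospondin gene, had 3.38, 2.45 and 2.37 CPM in PRMK and 19.1, 21.5 and 19.3 CPM in PRM. Its log2 fold change was -2.87 (SE 0.35), with a DESeq2 adjusted p of 3.75e-19 and an edgeR adjusted p of 0.158. Galk1 had 20.4, 22.8 and 14.998 CPM in PRMK and 80.6, 144 and 177 CPM in PRM (log2 fold change -2.79, SE 0.36, DESeq2 adjusted p = 5.45e-09, edgeR adjusted p = 0.158). In both genes every PRMK library lay below every PRM library. Itpr3, an inositol trisphosphate receptor gene, had 49.4, 63.7 and 55.1 CPM in PRMK and 812, 65.7 and 179 CPM in PRM, so its log2 fold change of -2.65 leans on PRM library 4, and DESeq2 (adjusted p = 0.0283) did not call it without that library or without any 1 PRMK library. DESeq2 called Tgif2, Thbs3 and Galk1 with each library left out, and edgeR called all 3 without PRM library 4. H4c18 and H3c15 were also called higher by DESeq2, and Ube2v1 lower, but these have near copies elsewhere in the genome and their counts are uncertain.

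**Figure D4:**
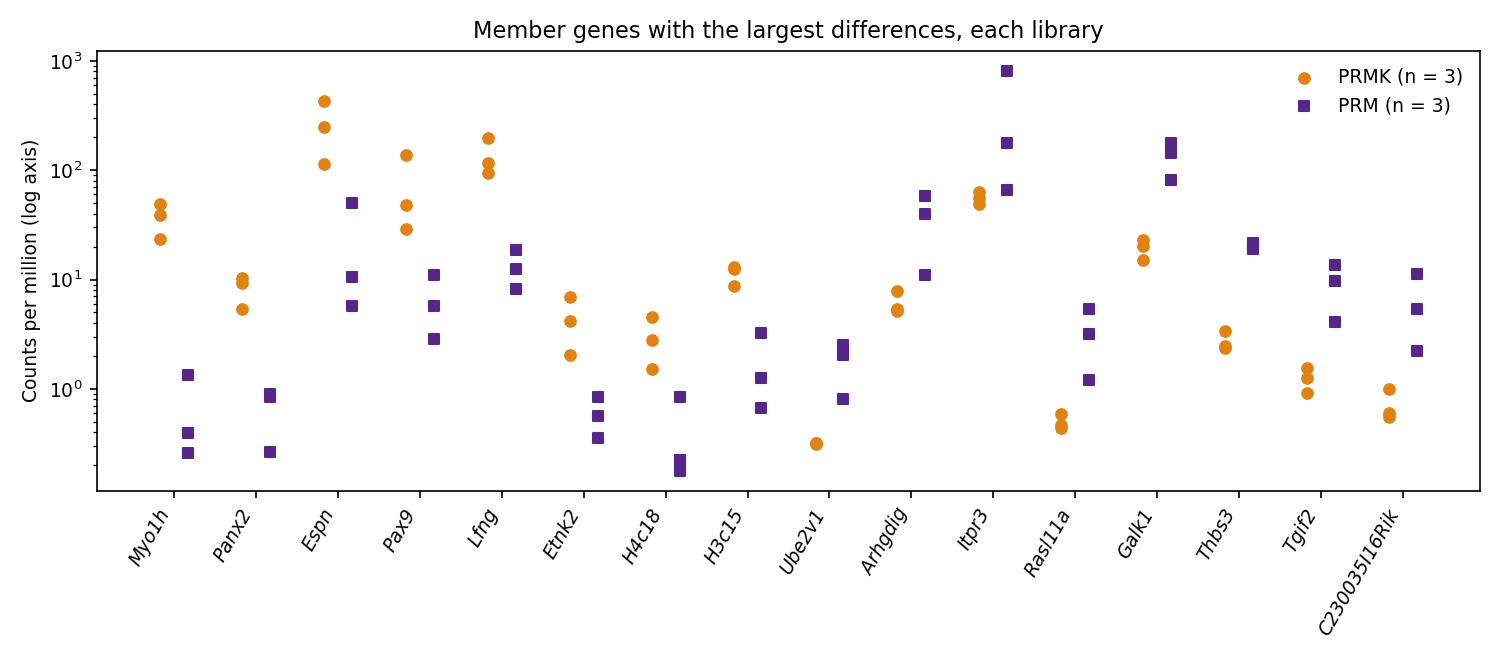
CPM of each PRMK and PRM library (y axis, log scale) for the member genes called by DESeq2 whose log2 fold change was most positive or most negative (x axis). Lfng lay between 95.2 and 197 in PRMK and between 8.18 and 18.8 in PRM, and Thbs3 between 2.37 and 3.38 in PRMK and between 19.1 and 21.5 in PRM.

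Many member genes of ribosome production were lower in PRMK by DESeq2. Of 30 ribosome biogenesis genes, 16 were member genes, and DESeq2 called 11 of these 16 lower and none higher, while edgeR called none. Their median log2 fold change was -1.24, beside -0.02 over all genes tested. Of all 30 genes, members or not, DESeq2 called 22 lower, with a median of -1.23. With 1 library left out, DESeq2 called between 1 and 14 of the 16 lower: 1 without PRMK library 1 or PRMK library 3, 6 without PRMK library 2 or PRM library 5, 10 without PRM library 6 and 14 without PRM library 4. Without PRM library 4, edgeR called 13.

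Polr1b encodes a subunit of RNA polymerase I, which transcribes ribosomal RNA. It had 42.6, 55.4 and 39.5 CPM in PRMK and 147, 311 and 148 CPM in PRM, with no overlap. Its log2 fold change was -2.14 (SE 0.37, DESeq2 adjusted p = 3.8e-05, edgeR adjusted p = 0.19). Nop56, a box C/D small nucleolar RNP protein gene, had 177, 213 and 162 CPM in PRMK and 334, 603 and 395 CPM in PRM. Fbl, which encodes the methyltransferase fibrillarin, had 86.0, 114 and 90.4 CPM in PRMK and 158, 267 and 240 CPM in PRM, and neither overlapped. DESeq2 called Polr1b with each library left out, and Fbl and Nop56 except without PRMK library 1 or 3. All 3 regions kept H3K4me3 and KMT2C in both PRMK libraries.

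Cytosolic ribosomal protein genes were 41 members of 77 listed. DESeq2 called 13 of the 41 lower and none higher, with a median log2 fold change of -1.07, and 23 of the whole 77 lower with a median of -1.01. The median of the 41 was -0.65 without PRM library 6. With 1 library left out, DESeq2 called 0 without PRMK library 1, 2 without PRMK library 3, 3 without PRMK library 2, and 24, 26 and 28 without PRM libraries 5, 6 and 4. Rpl37 had 19.006, 22.4 and 19.5 CPM in PRMK and 46.4, 44.9 and 70.2 CPM in PRM, and its groups did not overlap. The log2 fold change was -1.41 (SE 0.27, DESeq2 adjusted p = 0.000357, edgeR adjusted p = 0.19), and DESeq2 did not call it without PRMK library 1. Ribosomal protein genes have many processed pseudogenes, so single counts are uncertain.

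Myc, which drives ribosome production and is not a member gene, moved with both lists. It had 272, 312 and 205 CPM in PRMK and 1139, 2304 and 2056 CPM in PRM (log2 fold change -2.80, SE 0.36, DESeq2 adjusted p = 1.57e-10, edgeR adjusted p = 0.158). Reads of the added Myc and of the mouse gene were not told apart here, and the part of Myc in the member genes' RNA was not tested. In the list of the MYC family and the MAX network, 9 of 12 genes were members: Max, Mga, Mlx, Mlxip, Mnt, Mxd1, Mxd3, Mxd4 and Mycl. DESeq2 called Mycl higher and no other. Mycl had 205, 261 and 268 CPM in PRMK and 92.1, 24.1 and 18.5 CPM in PRM (log2 fold change 2.44, SE 0.65, DESeq2 adjusted p = 0.00672, edgeR adjusted p = 0.208), without overlap. DESeq2 did not call Mycl when any 1 PRMK library was left out, and edgeR called it without PRM library 4.

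Writers and erasers of H3K4 methylation were among the members. Of 21 KMT2 and SETD1 complex genes, 14 were member genes, among them Kmt2a, Kmt2b, Kmt2c, Kmt2d, Setd1a, Setd1b, Men1 and Kdm6a, and DESeq2 and edgeR called none of the 13 tested (median -0.11, and 0.06 without PRM library 5). Without PRM library 6, DESeq2 called 2 of the 13 lower. Of 11 genes of H3K4 demethylases and their partners, 5 were members, and DESeq2 called Hdac1, a histone deacetylase gene, higher: 162, 166 and 167 CPM in PRMK and 97.0, 124 and 111 CPM in PRM (log2 fold change 0.58, adjusted p = 0.0369). Of 28 Polycomb genes 12 were members, and DESeq2 called Rbbp7 lower (log2 fold change -0.56, adjusted p = 0.04). Neither Hdac1 nor Rbbp7 was called by DESeq2 when any 1 PRMK library was left out. None of 39 Hox genes was a member, and 4 lay at H3K4me3 regions without KMT2C.

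Lineage lists differed in their share of members. Member genes were 15.1% of the RefSeq genes and 31.4% of the genes tested. Of 28 neuroendocrine genes 10 were members (Chga, Cplx2, Eno2, Foxa2, Insm1, Ncam1, Nfib, Nkx2-1, Prox1 and Uchl1), with a median log2 fold change of 0.95 and no call by either tool. The median was 0.42 without PRM library 6 and 1.28 without PRM library 4, where DESeq2 called 3 of them higher and edgeR 1. Uchl1, a neuronal ubiquitin hydrolase gene, had 828, 848 and 738 CPM in PRMK and 426, 490 and 43.5 CPM in PRM. Its groups did not overlap, but its fold leans on PRM library 6, the library with low neuroendocrine genes. Of 20 non-neuroendocrine and Notch-YAP genes 3 were members, and DESeq2 called Jag1, a Notch ligand gene, lower: 10.2, 13.4 and 9.62 CPM in PRMK and 33.0, 61.7 and 20.4 CPM in PRM (log2 fold change -1.79, adjusted p = 0.00823), though not without PRMK library 1 or 3. Epithelial adhesion and mesenchymal transition genes had 1 member each, Cldn3 of 18 and Cdh2 of 13.

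Other housekeeping lists had smaller shares of DESeq2 calls, and the difference was not tested. Of 45 spliceosome genes 27 were members, with a median log2 fold change of -0.25 (-0.03 without PRM library 5) and no DESeq2 call with all libraries. DESeq2 called 1 of the 27 lower without PRM library 4 and 2 without PRM library 6. Of 67 respiratory chain genes 25 were members with 1 called lower, Atp5l, and of 31 proteasome genes 12 with 2 called lower, Psmd11 and Psmb3. The median was -0.09 over the respiratory members (0.10 without PRM library 6) and -0.51 over the proteasome members. Without PRM library 4, DESeq2 called 7 of each group lower. Replication licensing and mitotic genes had 13 of 22 and 11 of 24 members, and none was called with all libraries. Without PRM library 4, DESeq2 called 4 licensing members and 1 mitotic member lower, and without PRM library 6 it called 1 of each lower. DESeq2 did not call Atp5l, Psmd11 or Psmb3 when any 1 PRMK library was left out.

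**Figure D5:**
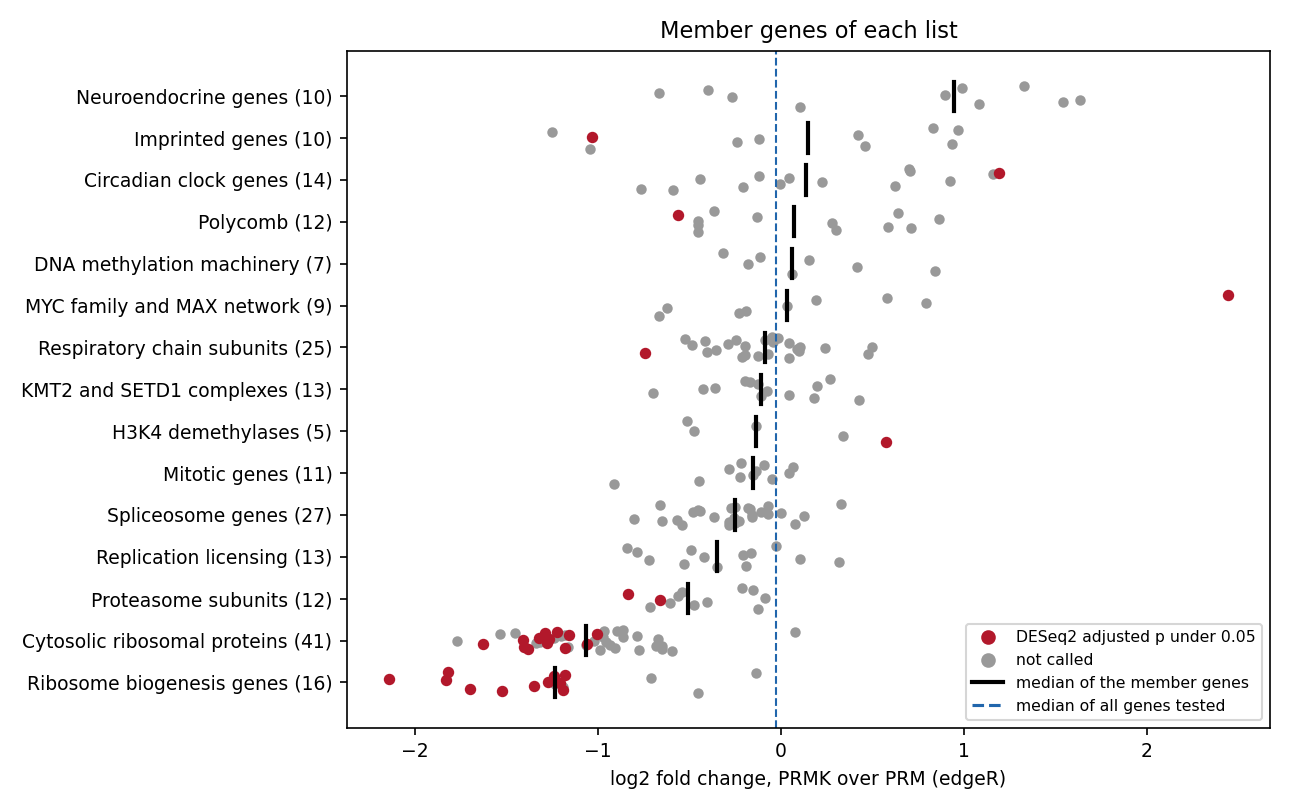
Log2 fold change of PRMK over PRM (x axis) for the tested member genes of each list (rows), red where the DESeq2 adjusted p was under 0.05, with the median of each list's member genes as a bar and the median of all genes tested as a line. Ribosome biogenesis (11 of 16 called lower) and cytosolic ribosomal protein genes (13 of 41) lay left of the line.

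Of the clock genes with the strongest KMT2C sites, Per1, Nr1d1, Tef and Dbp were called by neither tool. Per1 had 48.1, 49.3 and 45.8 CPM in PRMK and 52.0, 30.5 and 72.6 CPM in PRM, and Nr1d1 had 21.5, 24.6 and 30.4 CPM in PRMK and 37.2, 44.1 and 22.3 CPM in PRM. Both overlapped. Whether counting used strand is not stated, so reads of Nr1d1 and of Thra, which lies on the other strand at the same place, may be mixed. Tef had 235, 243 and 204 CPM in PRMK and 180, 155 and 84.8 CPM in PRM, and Dbp 13.8, 13.7 and 15.1 CPM in PRMK and 10.97, 6.72 and 4.71 CPM in PRM. These 2 did not overlap but passed neither test (DESeq2 adjusted p = 0.219 for Tef and 0.154 for Dbp). DESeq2 called Per3 alone among the 14 clock members. Per3 had 54.7, 54.2 and 54.5 CPM in PRMK and 30.1, 17.98 and 23.4 CPM in PRM (log2 fold change 1.19, SE 0.26, DESeq2 adjusted p = 0.00189, edgeR adjusted p = 0.19), and DESeq2 did not call it when any 1 PRMK library was left out.

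The second RNA comparison set sgMeis2 against sgScramble within PRMK. Meis2 had 219, 224 and 136 CPM with sgMeis2 and 258, 226 and 233 CPM with sgScramble. Of 4516 member genes tested, edgeR called none (0% of all genes tested), with 112 higher and 64 lower at an unadjusted p under 0.05, beside 2.2% and 2.47% of all genes. DESeq2 called 1 member gene, which was higher, against 0.135% of all genes tested (0.0185% higher and 0.117% lower). The groups did not overlap in 450 member genes that were higher (9.96%) and 287 that were lower (6.36%), beside 8.12% and 7.92% of all genes. That gene was Nr2f1, an orphan nuclear receptor gene, with 131, 120 and 124 CPM with sgMeis2 and 86.4, 91.5 and 93.2 CPM with sgScramble. The groups did not overlap, and the log2 fold change was 0.47 (DESeq2 adjusted p = 0.00206, edgeR adjusted p = 0.677). DESeq2 did not call it without sgMeis2 library 1 or without any 1 sgScramble library (adjusted p between 0.241 and 0.518). The median over member genes was 0.02, beside 0.0036 over all genes tested. Without sgMeis2 library 3, edgeR called 8 member genes and 46 of 16565 genes in all.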

How the data were processed

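RNA reads were aligned with STAR 2.6.0a to GRCm38, CUT&Tag reads with Bowtie2 to mm10 with peaks called by SEACR, and ATAC reads with Bowtie2 2.2.1, per the submitters' processing notes. The sources used here do not name the counting tool, the ATAC peak caller or any control used for SEACR. The deposited RNA values used were raw counts per gene. In the SEACR lists the authors deposited the total and highest signal of each peak, with no depth stated. In the ATAC lists the authors deposited peaks with the score their caller wrote, and these scores were used only in an alternative that keeps peaks at or above each list's median. The deposited RNA tables also hold the authors' own log2 fold changes and p-values, which were not used. The 12 per-sample columns of another normalized measure were not used. The PRM count columns are numbered 4 to 6 and the titles 3 to 5, so libraries are named here by column. IgG, bisulfite, single-cell and S-adenosylmethionine data are not analysed here. Values of some genes are not reported here.

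Peaks were merged and compared in Python 3.11.15 with numpy 2.4.6 and pandas 2.3.3 by an overlap of at least 1 bp. ATAC gapped peaks were used by their thick part. Only protein-coding and long non-coding RNA genes were used. Gene starts came from the RefSeq promoter table (GRCm38.p6) and, for genes not in it, from either gene end, which gave 954 of the 5236 member genes. Counts were tested in R 4.3.3 over the whole table of each comparison with the quasi-likelihood test of edgeR 4.0.16 after TMM scaling and edgeR's filter on low counts, and with DESeq2 1.42.0 as an alternative, at a Benjamini-Hochberg adjusted p under 0.05. Both tools were run on simulated counts with large planted changes and a fixed spread for each comparison. That setting does not show how either tool performs at the spread of these libraries. CPM are TMM-scaled, and fold changes are edgeR's at the default prior count of its fit, unless DESeq2 is named. The SE is not written by edgeR: it is the absolute log2 fold change divided by the square root of the quasi-likelihood F. A fold change of a low gene depends on the prior count.

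The genes named are the drivers, those at the strongest and widest sites, the 8 most positive and 8 most negative log2 fold changes of called member genes with a mean of at least 1 CPM and no overlap between groups, up to 3 member genes per list, those at starts where a mark was missing in both libraries, and the sgMeis2 call. As edgeR called no gene, DESeq2 calls were used. The members and lists were chosen with earlier results of these data known, and the clock and imprinted lists after values were seen.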

Additional observations from a re-analysis of the deposited data

How the results depend on the processing

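Peak results depended on how an overlap was called. When a peak had to cover 50% of the region, the shares with a peak in both libraries were 91.6% for H3K4me3 in PRMK (232 regions in neither), 97.6% and 96.1% for H3K4me2 in PRMK and PRM, 19.9% and 26.02% for H3K4me1 in PRMK and lung PRM, 77.1% and 95.4% for KMT2C in PRMK and liver, and 39.4% for ATAC in PRM. Using only peaks at or above each list's median signal (score for ATAC) left 2196 members, 91.8% of them at a start, and gave 74.2% for H3K4me3 in PRMK (969 in neither), 91.9% and 81.0% for H3K4me2 in PRMK and PRM, 22.1% and 25.2% for H3K4me1 in PRMK and lung PRM, 94.3% and 97.6% for KMT2C in PRMK and liver, and 77.3% for ATAC in PRM. With starts of the promoter table alone, 68.5% of members lay at a start. Leaving out 1 library gave 5092 to 7476 members, 94.8% to 96.4% for H3K4me3 in PRMK (181 to 256 in neither), 98.9% to 99.1% and 98.1% to 99.3% for H3K4me2 in PRMK and PRM, 34.3% to 47.0%, 36.0% to 49.6% and 36.1% to 41.4% for H3K4me1 in PRMK, liver and lung PRM, 97.9% to 98.0% and 98.8% to 99.3% for KMT2C in PRMK and liver, and 87.1% to 93.7% for ATAC in PRM. In RNA of PRMK and PRM, DESeq2 called 353 member genes where edgeR called 0. With 1 library left out, edgeR called 0 to 252, DESeq2 called 40, 125 and 74 (PRMK libraries 1, 2 and 3) and 1226, 421 and 631 (PRM libraries 4, 5 and 6), and the median log2 fold change ran from -0.100 to -0.024. In sgMeis2 and sgScramble, DESeq2 called 1, edgeR 0 to 8 with 1 library left out, and the median ran from 0.00011 to 0.030. The log2 fold change of Kmt2c ran from -0.71 without PRM library 6 to 0.019 without PRM library 5. For 52 named genes, 415 of 468 alternative values kept direction and side of the threshold, 52 became calls (35 in DESeq2, 17 without PRM library 4) and 1 reversed. In this comparison edgeR called no gene at all, in the main fit or in any alternative but that without PRM library 4. Most of these values therefore could not change side, and the count does not measure stability. Replicate numbers of sgMeis2 and sgScramble did not pair the samples: deviations of same-numbered libraries correlated at 0.013, -0.002 and 0.034. With a replicate block sgMeis2 had 0 calls and a median of 0.02, beside 0.02 without it. The DESeq2 fits with a library left out, list counts with a library left out, starts of the promoter table alone, the setting without chromosomes 5 and 14 and the one on H3K4me3 cover were chosen after seeing the data. No paired analysis was possible for PRMK and PRM because their columns share no replicate number, or for the peaks because no test was made. The cause of these differences was not tested. Depth of the peak libraries is unknown, so a missing peak does not show that a mark was absent.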

Other observations

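MicroRNA genes also lay in these regions. Of 1005 miRNA hairpins in the RefSeq table, 70 overlapped a member region, among them those of Mir375, a microRNA of neuroendocrine cells, Mir132 and Mir212, which share a primary transcript, Mir22, Mir210, Mirlet7b and Mirlet7c-2. These were picked from the 70 after the overlap was seen, and their RNA was not measured in libraries made for small RNA.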
